A study of Mus musculus with 9 samples.

Results

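The miR-29 and miR-26 families are small RNAs that act on bone matrix and osteoblast differentiation. Members were the array entries named mmu-miR-29a-3p, mmu-miR-29b-3p, mmu-miR-29c-3p, mmu-miR-26a-5p and mmu-miR-26b-5p, 5 of the 1881 mouse miRNAs on the array, chosen by name. They were measured with 9 one-colour arrays, 3 at each alpha-particle dose: 0 Gy (no irradiation), 0.5 Gy and 1 Gy, the irradiated cells at 0.22 Gy per minute. All groups held the same wild-type material: osteoblastic cells grown from marrow of male C57BL/6 mice aged 8 weeks, kept for 7 days in culture and then for 7 days in medium with β-glycerol phosphate, an ascorbic acid phosphate and dexamethasone, which drives osteoblast differentiation. The series asks how miRNA levels in such cells relate to radiation sensitivity. Alpha particles are helium nuclei that leave dense tracks of damage over a short path. Nothing in the labels ties the 3 arrays of a dose to separate mice or dishes. The p-values below therefore measure the spread of these arrays only, and that spread may be technical. How long after irradiation the RNA was taken was not stated in the labels.

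A mature miRNA guides the silencing complex to messenger RNAs that pair with its seed, the bases near its 5′ end, and lowers their translation and stability. Known targets of miR-29 include messenger RNAs of collagens, elastin and osteonectin, and in osteoblasts also inhibitors of Wnt signalling, so the family is known both for restraining matrix synthesis and for favouring osteoblast differentiation. miR-26a is known to act on Smad and Gsk3 signalling during osteogenic differentiation of stromal cells. Both families are widespread in mesenchymal tissue.

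The mature sequences, from RefSeq's annotation of GRCm38.p6, show which members can be told apart by few bases. All 5 members matched an entry there. Capitals mark the seed, bases 2 to 8 counted from the 5′ end.
mmu-miR-29a-3p: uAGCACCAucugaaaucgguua
mmu-miR-29b-3p: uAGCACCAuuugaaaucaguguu
mmu-miR-29c-3p: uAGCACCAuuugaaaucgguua
mmu-miR-26a-5p: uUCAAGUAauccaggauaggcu
mmu-miR-26b-5p: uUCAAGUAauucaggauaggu

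The seed AGCACCA was held by 3 mature entries of that table, the miR-29 members, and UCAAGUA by 2, the miR-26 members. miR-29a-3p and miR-29c-3p differ by 1 base of 22, C10U. miR-29b-3p differs from miR-29a-3p by C10U, G18A, U21G and A22U and is 1 base longer. The miR-26 members differ by C11U and C21U, and miR-26b-5p is 1 base shorter. In the same annotation Mir29a neighbours Mir29b-1 on the minus strand of chromosome 6, with no gene spanning them, and Mir29b-2 neighbours Mir29c on the plus strand of chromosome 1, within the long noncoding RNA gene A330023F24Rik. Mature miR-29b-3p is thus made from 2 genes that lie beside different relatives. The miR-26 hairpins lie within genes of small phosphatases: Mir26a-1 in Ctdspl on chromosome 9, Mir26a-2 in Ctdsp2 on chromosome 10 and Mir26b in Ctdsp1 on chromosome 1.

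Arrays differed in background before any dose was considered. Array 1 of 0.5 Gy and array 1 of 1 Gy had additive error estimates of 19.4 and 11.2 intensity units, against 1.60 to 2.83 on the other 7. They are called high-background arrays here, and results are given with and without them. The dimmest detected probe had an intensity of 96.3 and 55.5 on these arrays and 7.52 to 13.8 elsewhere. The 2 were not alike: the log10 labelling spike-in signal was 0.83 on array 1 of 0.5 Gy and 1.93 to 2.13 on all others. The hybridization spike-in signal was 3.74 on array 1 of 0 Gy and 2.52 to 3.33 on all others. Each array was scaled on its 75th percentile over 45 probes detected everywhere, and that percentile was 1462 on array 1 of 0 Gy and 618 to 815 on the others. Between 144 and 234 miRNAs were detected per array, where detected means that at least 50% of a probe's spots were well above background. The number of arrays limits the precision of every value below.

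Of the 5 members, miR-29a-3p was detected on 6 of 9 arrays, miR-26a-5p on 5 and miR-26b-5p on 4. miR-29b-3p and miR-29c-3p were detected on 0. Every detection fell on the 7 arrays of ordinary background. After scaling, the dimmest detected probe of the high-background arrays stood at 113 and 68.1 units. The brightest probe of any member on the other arrays reached 65.4 scaled units, for miR-29a-3p, so after scaling no level seen there lay above the dimmest detected probe of either high-background array. Before scaling that probe, at 60.5 units, lay above the 55.5 of array 1 of 1 Gy. The 7 opposite arms of the same hairpins were detected on 0 arrays.

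**Figure D1:**
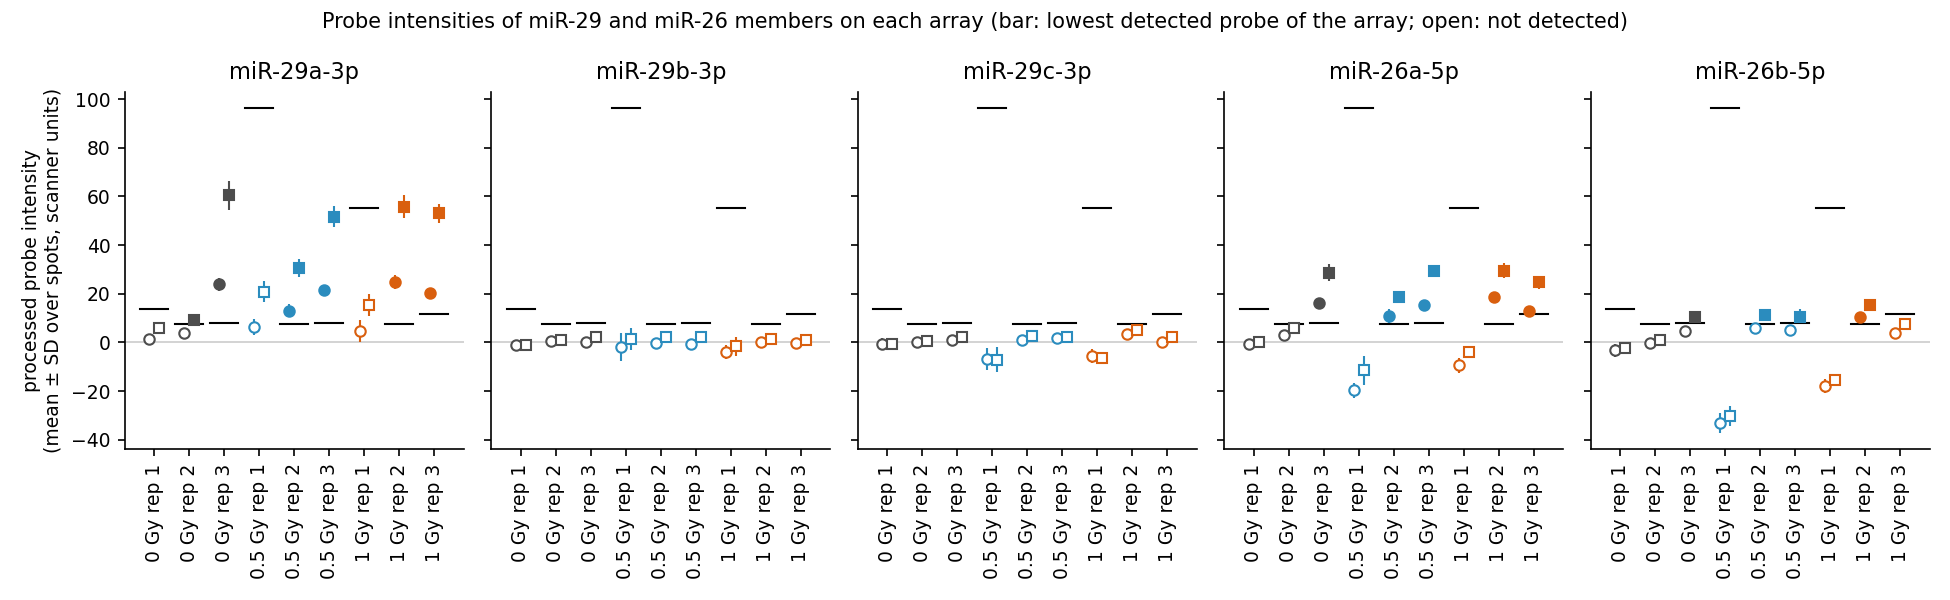
Processed probe intensity of each member on each of the 9 arrays, as mean ± SD over the spots of each of its 2 probes (circle and square), with black bars at the dimmest detected probe of each array. Filled symbols are detected probes. miR-29b-3p and miR-29c-3p have open symbols throughout, and all members have open symbols on the high-background arrays, whose bars stand at 96.3 and 55.5.

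miR-29a-3p, the miR-29 member whose gene lies beside Mir29b-1, had summed intensities over its 2 probes of 7.50, 12.7 and 84.4 on arrays 1, 2 and 3 of 0 Gy. At 0.5 Gy they were 27.2, 43.8 and 73.2, and at 1 Gy 20.2, 80.7 and 73.6. Array 3 of 0 Gy was the brightest of all 9, and arrays 1 and 2 of 0 Gy were the dimmest, so the doses overlapped. On the scaled log2 scale the 0 Gy values were 3.52, 3.80 and 6.51, where 3.52 is the floor to which lower values were raised and at which values have no order. The 0.5 Gy values were 5.00, 5.69 and 6.32, the first of them not detected. The 1 Gy values were 4.63, 6.24 and 6.10, again with the first not detected.

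The spread inside 0 Gy was wider than any gap between doses. By the brighter miR-29a-3p probe, which was detected on each array named here, array 3 of 0 Gy exceeded array 2 by 6.60-fold in scaled signal, while array 3 of 0.5 Gy exceeded array 2 by 1.56-fold and array 2 of 1 Gy exceeded array 3 by 1.06-fold. That probe had 60.5 ± 5.88 units on array 3 of 0 Gy (SD over 15 spots) and 9.03 ± 1.40 on array 2, where 10 of 15 spots were well above background. The dimmer probe had 23.9 ± 2.60 units on array 3 (SD, 15 spots) and was not well above background on array 2, with 0 of 15 spots so marked.

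miR-29b-3p, which comes from both gene pairs, stayed at the floor on all 9 arrays. Its brighter probe had means between -1.62 and 2.21 intensity units, with 0 spots well above background on any array. miR-29c-3p, the 1-base relative of miR-29a-3p, also stayed at the floor. Its highest probe mean was 5.28 ± 2.01 units on array 2 of 1 Gy (SD over 15 spots), where 1 spot was well above background, and only on that array did the scanner software itself call it detected. On array 3 of 0 Gy, the brightest for miR-29a-3p, the miR-29c-3p probes had means of 1.07 and 2.11 units. No fold between doses can be given for miR-29b-3p or miR-29c-3p, since both sides were not well above background.

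miR-26a-5p, which is encoded by 2 genes, was at the floor of 3.52 on arrays 1 and 2 of 0 Gy and at 5.60 on array 3. At 0.5 Gy it was at the floor, 5.13 and 5.61 on arrays 1, 2 and 3, and at 1 Gy at the floor, 5.50 and 5.14. The 5 arrays with detected miR-26a-5p lay within 5.13 to 5.61 whatever their dose. On array 2 of 0 Gy its brighter probe had 5.96 ± 1.70 units (SD, 15 spots) with 1 spot well above background, against 28.6 ± 3.58 units on array 3 with 15 of 15. The scanner software called miR-26a-5p detected on that array 2 of 0 Gy, which the rule on spots used here did not.

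miR-26b-5p lay nearest the detection limit of the 3 detected members. Its log2 values were at the floor on arrays 1 and 2 of 0 Gy and 4.04 on array 3. At 0.5 Gy it was at the floor, 4.34 and 4.09, and at 1 Gy at the floor, 4.61 and at the floor again. On array 3 of 1 Gy its summed intensity was 11.5, which the scanner software called detected and the rule on spots used here did not. Groups overlapped for this member too. On the high-background arrays its summed intensities were -63.2 and -33.2, and those of miR-26a-5p were -31.0 and -13.3.

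**Figure D2:**
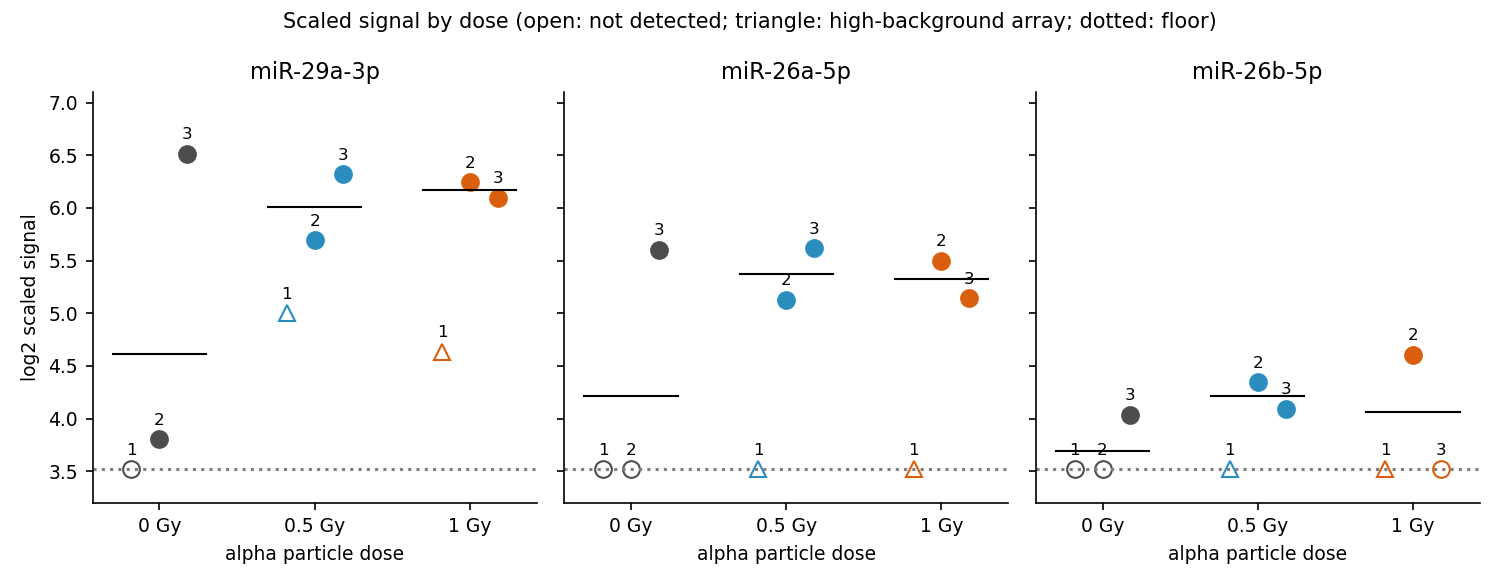
Log2 scaled signal of the 3 detected members against alpha-particle dose, 1 symbol per array with its replicate number, triangles for the high-background arrays, open symbols where not detected, and a bar at the mean of the arrays of ordinary background. Array 3 of 0 Gy lies above every irradiated array in the miR-29a-3p panel and among them in the miR-26 panels, while arrays 1 and 2 of 0 Gy lie at or near the dotted floor of 3.52.

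The first question is whether 0.5 or 1 Gy changed these miRNAs against unirradiated cells. With all 9 arrays no member passed the filter for testing, which asked for detection on all arrays of at least 1 dose and kept 134 miRNAs. Fitted without the filter, miR-29a-3p differed from 0 Gy by a log2 value of 1.06 at 0.5 Gy (SE 0.87, limma adjusted p 0.445 over 1011 miRNAs) and by 1.05 at 1 Gy (SE 0.87, adjusted p 0.942). miR-26a-5p differed by 0.54 and 0.51 (SE 0.85, limma adjusted p 0.611 and 0.942). miR-26b-5p differed by 0.29 and 0.19 (SE 0.41, limma adjusted p 0.569 and 0.967). Every 95% interval included 0, and 0 of the 3 were called at an adjusted p under 0.05, beside 0% of all 1011 miRNAs in either comparison (4 and 5 had an unadjusted p under 0.05). The median difference over the 1011 was 0.92 at 0.5 Gy and 0.45 at 1 Gy, with 840 and 674 of them above 0 Gy. At 0.5 Gy miR-29a-3p lay near that median and both miR-26 members below it. Some undetected miRNAs stood above the floor mainly where background was high. Undetected miR-29c-5p had log2 values of 7.34 and 6.03 on the high-background arrays and 3.52 on the others. Undetected miR-29b-1-5p and miR-29b-2-5p stayed at the floor on all 9. How far such values set the median over the 1011 was not tested, so that median cannot be read as a broad rise with dose. Of the 134 filtered miRNAs 0% were called too, with 2 and 4 at an unadjusted p under 0.05. Their median difference was -0.47 at 0.5 Gy and -0.49 at 1 Gy.

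Without the high-background arrays 179 miRNAs passed the filter, miR-29a-3p, miR-26a-5p and miR-26b-5p among them. All 3 passed through irradiated arrays alone, since none was detected on all 3 arrays of 0 Gy. Of the 46 miRNAs that passed this way, 44 were higher at 0.5 Gy and 43 at 1 Gy than at 0 Gy, so an upward direction of the members is built into the filter and supports nothing. miR-29a-3p averaged 4.61 ± 1.65 at 0 Gy (SD, n = 3), 6.01 ± 0.44 at 0.5 Gy (n = 2) and 6.17 ± 0.10 at 1 Gy (n = 2). miR-26a-5p averaged 4.21 ± 1.20, 5.37 ± 0.35 and 5.32 ± 0.25 over the same arrays. miR-26b-5p averaged 3.69 ± 0.30, 4.22 ± 0.18 and 4.06 ± 0.77. The 0 Gy means include floor values, on array 1 for miR-29a-3p and on arrays 1 and 2 for both miR-26 members. So does the 1 Gy mean of miR-26b-5p, on array 3. The size of these means, their SDs and the differences from 0 Gy thus depends on the floor chosen.

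The differences on these 7 arrays were larger than with all 9, and none passed the test. miR-29a-3p was 1.39 above 0 Gy at 0.5 Gy on the log2 scale (95% confidence interval -0.50 to 3.29, limma adjusted p 0.828) and 1.56 above it at 1 Gy (-0.33 to 3.45, adjusted p 0.590). For miR-26a-5p the differences were 1.16 (-0.37 to 2.69, limma adjusted p 0.828) and 1.11 (-0.42 to 2.64, adjusted p 0.590). For miR-26b-5p they were 0.53 (-0.59 to 1.64, limma adjusted p 0.828) and 0.37 (-0.75 to 1.49, adjusted p 0.659). Of the 179 miRNAs 0% were called in either comparison, with 0 and 9 at an unadjusted p under 0.05. The median difference over all 179 was 0.03 and -0.02. Both comparisons share the 0 Gy arrays.

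The exact two-sided permutation test over the 7 arrays gave p 0.4 at both doses for miR-29a-3p, 0.3 and 0.4 for miR-26a-5p, and 0.2 and 0.7 for miR-26b-5p. With 2 arrays against 3 the smallest p it allows is 0.1.

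Array 3 of 0 Gy decided the calls. Without it and the high-background arrays, 6 arrays remained, and miR-29a-3p was 2.34 above 0 Gy at 0.5 Gy (SE 0.40, limma adjusted p 0.0192) and 2.51 above it at 1 Gy (SE 0.40, adjusted p 0.0209). miR-26a-5p was called too (limma adjusted p 0.0251 and 0.0279), but both of its remaining 0 Gy values are the floor itself, so its fitted 1.85 and 1.80 are no measured size. miR-26b-5p, at 0.70 and 0.54, did not pass (limma adjusted p 0.392 and 0.450). These calls stood beside 15.1% of 185 miRNAs called at 0.5 Gy and 16.2% at 1 Gy. The array left out is the one 0 Gy array on which these members were bright, and the filter passed them through irradiated arrays alone, so the direction was fixed. miR-29a-3p too was at the floor on array 1 of 0 Gy and near it on array 2, which cuts off the spread between them. Leaving out any other array of the 7 left 0 members called, and the miR-29a-3p difference then ran down to 0.85 at 0.5 Gy and 1.01 at 1 Gy, both without array 1 of 0 Gy.

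**Figure D3:**
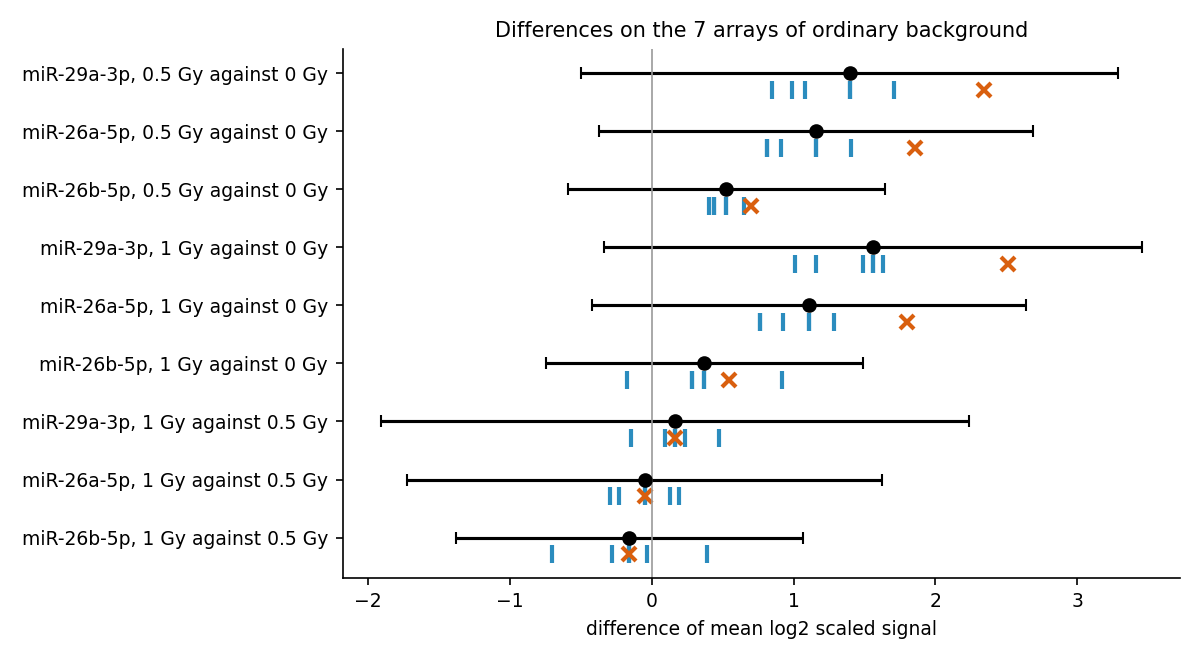
Differences of mean log2 scaled signal on the 7 arrays of ordinary background (points) with 95% confidence intervals (lines), for 3 members and 3 comparisons. Marks under each line are the differences with 1 array left out, the cross being without array 3 of 0 Gy, where miR-29a-3p reaches 2.34 and 2.51. Every interval of the 7-array fit includes 0.

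The arrays lay on 3 slides: 1 with 6 arrays (arrays 1 and 3 of each dose), 1 with array 2 of 0 Gy alone, and 1 with array 2 of both other doses. With slide as a block over 9 arrays, miR-29a-3p differed from 0 Gy by 0.50 and 0.49, miR-26a-5p by -0.095 and -0.13, and miR-26b-5p by -0.064 and -0.17. Within the slide of 6 arrays the differences were 0.65 and 0.35 for miR-29a-3p, 0.0067 and -0.23 for miR-26a-5p, and 0.028 and -0.26 for miR-26b-5p. Without the high-background arrays and with the slide block, miR-29a-3p differed by 1.11 and 1.28 (SE 1.11, limma adjusted p 0.993 and 0.935), miR-26a-5p by 0.84 and 0.79, and miR-26b-5p by 0.11 and -0.050. Among these slide fits, the negative miR-26a-5p values came only with the high-background arrays. Both of these arrays lie on the slide of 6 and have miR-26a-5p at the floor, so slide and background cannot be told apart there.

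The second question is whether the higher dose differed from the lower. On the 7 arrays miR-29a-3p differed by 0.16 between 1 and 0.5 Gy (95% confidence interval -1.91 to 2.24, limma adjusted p 0.999). miR-26a-5p differed by -0.050 (-1.73 to 1.63) and miR-26b-5p by -0.16 (-1.38 to 1.07), each with a limma adjusted p of 0.999. Among all 179 miRNAs 0% were called, and 4 had an unadjusted p under 0.05. With 2 arrays against 2 the exact two-sided permutation p was 1 for each member, where 0.333 is the smallest possible. These intervals leave room for differences of over 1 log2 unit in either direction, so they do not show that the doses act alike.

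In the order of mean levels over the 7 arrays, miR-29a-3p ran 0, 0.5 and 1 Gy from low to high, and both miR-26 members ran 0, 1 and 0.5 Gy. No neighbours in these orders differed beyond the error of the fit.

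Members detected on at least 5 arrays were set against other miRNAs by their pattern. Among the 169 miRNAs detected on 5 or more arrays, those most like miR-29a-3p by Pearson r of the log2 value over 9 arrays were miR-181b-5p (0.979), miR-652-3p (0.965) and miR-15b-5p (0.953). For miR-26a-5p they were miR-103-3p (0.999), let-7g-5p (0.997) and let-7i-5p (0.994). An r above 0.9 was reached by 19 miRNAs for miR-29a-3p and 16 for miR-26a-5p, and the r between these 2 members was 0.921. Without the high-background arrays the order changed: miR-29a-3p was most like let-7g-5p (0.997), miR-223-3p (0.997) and let-7i-5p (0.995), with miR-15b-5p at 0.952, and miR-26a-5p was most like miR-103-3p (0.999), let-7g-5p (0.996) and miR-223-3p (0.993). Over these 7 arrays an r above 0.9 was reached by 34 and 35 miRNAs, and the r between the members was 0.992. The points share libraries and scaling, and 4 of the 9 miR-26a-5p values sit at the floor. miR-103-3p sits at the floor on the same 4 arrays, so tied floor values enter its r with miR-26a-5p.

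Other miRNAs known in osteoblasts were read from lists, without regard to their direction. Of 18 known to inhibit osteoblast differentiation, 10 were detected on some array and 8 were tested on the 7 arrays, of which 0 were called at either dose (background 0%). They had median differences of 1.29 and 1.15, and 6 of the 8 passed the filter through irradiated arrays alone. Among them miR-34a-5p, a p53 target, differed by 1.53 and 1.47 (SE 0.84) and miR-23a-3p, which represses Runx2, by 1.78 and 1.80 (SE 0.85). Of 12 known to promote it, 5 were detected and 4 tested, 2 higher and 2 lower at each dose, with 0 called and medians of 0.44 and 0.38, and 2 of the 4 passed the filter through irradiated arrays alone. There miR-3960, an osteoblast miRNA that acts on Hoxa2, differed by -0.51 and -1.13 (SE 0.48), and miR-15b-5p by 1.99 and 1.82 (SE 1.02). Of 15 known in matrix and fibrosis, 3 were detected and tested, with 0 called and medians of 0.96 and 1.20, and 2 of the 3 passed through irradiated arrays alone. miR-21a-5p, one of these and a fibrosis-associated miRNA, differed by 0.96 and 1.20 (SE 0.60). The lists share miRNAs and are not separate evidence. miR-21a-5p is also on the promoting list, and miR-214-3p is on the inhibiting and matrix lists and among the stromal markers below. miR-125b-5p, an inhibitor, and miR-199a-5p, of the matrix list, are stromal markers too.

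Stromal markers were low on arrays 1 and 2 of 0 Gy, where the members lay at or near the floor. Haematopoietic markers were low on these 2 arrays too. On the high-background arrays the members were not detected, so their level there is not known. Of 10 stromal markers, at most 5 were detected on an array, and their summed scaled signal was 80.5, 306 and 1209 units on arrays 1, 2 and 3 of 0 Gy. It ranged from 351 to 1145 at 0.5 Gy and from 488 to 1141 at 1 Gy, with the lowest on the high-background array each time. Only detected markers enter the sum, and these were 1 and 2 of the 10 on the high-background arrays, where the detection limit is high. miR-143-3p, miR-145a-5p, miR-10b-5p, miR-100-5p and miR-99a-5p, stromal markers all, were detected on 0 arrays. Haematopoietic markers, at most 3 of 8 detected, summed to 82.5, 66.9 and 269 units on arrays 1, 2 and 3 of 0 Gy. The sum ranged from 193 to 264 at 0.5 Gy and from 203 to 259 at 1 Gy. On the high-background arrays this sum was 195 and 210, against lowest values of 193 and 203 on the other arrays of the same doses. It held 1 detected marker there, miR-181a-5p, against 2 or 3 on those other arrays, so these sums do not compare like with like. miR-142a-3p, miR-142a-5p, miR-150-5p, miR-155-5p and miR-146a-5p were detected on 0 arrays. Erythroid and platelet, endothelial and muscle markers were detected on 0 arrays. On array 3 of 0 Gy, where the members were bright, the stromal and haematopoietic sums were also the highest of all 9. In bulk RNA, fewer cells of a type and less RNA per cell cannot be told apart, and the part of cell composition in the members' values was not tested. The array measures miRNAs alone, so osteoblast genes such as Runx2 or Bglap could not be used to check the cell type.

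**Figure D4:**
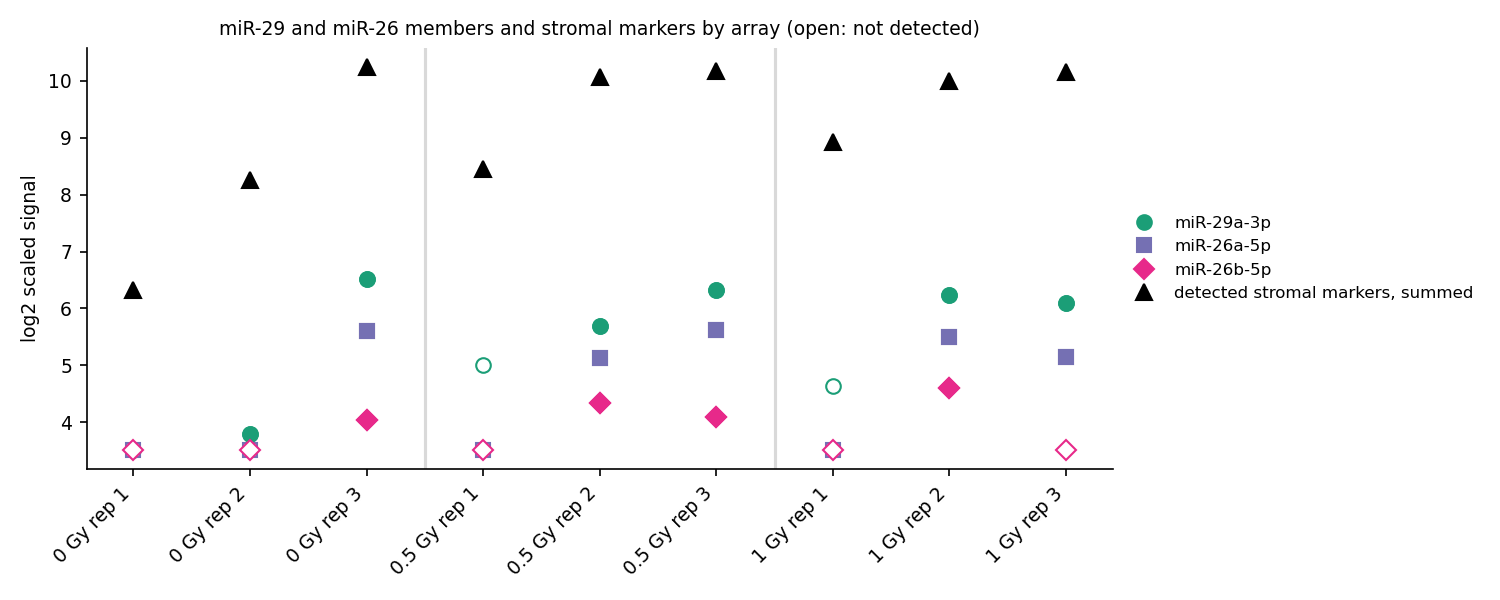
Log2 scaled signal of miR-29a-3p, miR-26a-5p and miR-26b-5p on each of the 9 arrays, open where not detected, with the log2 of the summed signal of the detected stromal markers (black triangles). Arrays 1 and 2 of 0 Gy are low in the members and in the stromal sum, and array 3 of 0 Gy is among the highest in both. On the high-background arrays no member is detected, and the stromal sum holds only the 1 and 2 markers detected there, so neither level can be compared.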

How the data were processed

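The deposited scanner files, 1 per array, give spot intensity values from Agilent Feature Extraction version 11.5.1.1. Per the file headers, that software subtracted the background of the intensity column used here and did not normalize between arrays. RNA was taken with an RNeasy Plus Mini kit, per the labels' protocols; whether small RNA was kept was not stated. The 9 value columns of a table of the whole series match no sample title and were not used here.

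Spots marked as outliers were left out. Probe means were divided by the array's 75th percentile (over 45 probes that every array detected), put back on one common scale, summed per miRNA, raised to a floor of 11.5 scaled units (the 1st percentile of detected values) and taken to log2. Where arrays were left out, scale and floor stayed and the filter was applied again. The design asked for lmFit and eBayes of limma 3.58.1 (R 4.3.3) over 9 arrays, two-sided, with Benjamini-Hochberg adjustment over all tested miRNAs, checked on simulated data. No member passed its filter, so fitted values come from the fit without a filter and from the 7 arrays. The simulated arrays had no floor and a smaller spread than the real ones. The check on them thus covers the code and not what these fits could detect.

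Same-numbered arrays of 0.5 and 1 Gy deviated together (r 0.837, 0.749 and 0.587 over 134 miRNAs), but arrays 2 and 3 also did across numbers (0.578 and 0.547), and array 1 of both doses is the high-background array, so these r do not show a pairing by number. A block for the number called 0 members. The rule for naming miRNAs took all members, their opposite arms, the 3 likest miRNAs of each member detected on at least 5 arrays, and a few of each list. The members and lists were chosen with earlier results of these data known. Scanner headers name an older mouse build than GRCm38.p6, so no coordinates are given. Alternatives changed scaling, background correction, probe summary, filter, floor, blocks and arrays.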

Additional observations from a re-analysis of the deposited data

How the results depend on the processing

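Over 9 arrays, 0 miRNAs were called in each comparison under every alternative run, and over the 7 arrays of ordinary background 0 were called except as follows. Leaving out 1 of the 7 arrays gave 0 to 28 calls at 0.5 Gy and 0 to 30 at 1 Gy against 0 Gy, the upper values without array 3 of 0 Gy. A replicate block on the 7 arrays gave 3 calls at 1 Gy (smallest limma adjusted p 0.0457), none of them a member (miR-29a-3p 1.01, adjusted p 0.546). The cause was not tested. The replicate block over 9 arrays gave 0 calls in each comparison (5, 7 and 0 at an unadjusted p under 0.05). Same-numbered arrays of 0 and 0.5 Gy had deviations with r of -0.023, -0.013 and 0.075. Those of 0 and 1 Gy had r of -0.13, -0.029 and 0.16. These r show no pairing of the 0 Gy arrays by number. They cannot exclude one, since the high-background arrays weigh on the deviations at both irradiated doses. Other scalings moved the median of all tested miRNAs on the 7 arrays from 0.03 to between -0.38 (no scaling) and 0.48 (75th percentile over all probes) at 0.5 Gy, and miR-29a-3p stayed above 0 Gy by 0.92 to 1.81 there. A floor 4 times as high brought miR-29a-3p to -0.0058 at 0.5 Gy over 9 arrays and miR-26a-5p to -0.028 at 1 Gy over the 7 arrays. miR-26b-5p turned to -0.17 at 1 Gy without array 2 of 1 Gy, with or without the high-background arrays. With the floor halved it rose to 1.19 and 0.99 over the 7 arrays, and to 0.49 at 1 Gy over all 9. Signal over background also limits these values: at 0 Gy the floor sets 1 of 3 miR-29a-3p values and 2 of 3 for each miR-26 member.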

Other observations

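The opposite arms of the hairpins, never detected, had summed intensities of either sign on the high-background arrays. miR-26b-3p had sums over its 4 probes of 215 on that of 0.5 Gy and 79.9 on that of 1 Gy, and of 3.22 to 16.8 on the other 7 arrays. miR-29c-5p had 138 and 53.3, and 1.71 to 10.2 elsewhere, and the scanner software called it detected on the 0.5 Gy one alone. miR-29b-1-5p had -46.5 and -29.4, and miR-29b-2-5p -26.2 and -21.3. miR-29a-5p had 39.5 and 8.50, miR-26a-2-3p 31.3 and 6.75, and miR-26a-1-3p 16.0 and -3.34.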
